A study of Mus musculus with 8 samples.

Results

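Fgd5 is the mouse gene for FYVE, RhoGEF and PH domain containing 5, and it is 1 of the 23358 gene symbols of the count table. It was chosen by its values in these 8 libraries, with earlier results of these data known: its level was much lower after loss of Huwe1, and unequally so between the deleted lines. Its own levels and fold changes are therefore given as a description with no test, and tests are kept for the genes around it. The data are 8 RNA-seq libraries of hematopoietic stem cells taken from mouse bone marrow and sorted without culture by the surface phenotype Lin-Sca+Kit+CD48-CD150+. Of these, 2 libraries came from Vav-Cre Huwe1 knockout mice, in which the series' design text calls the deletion constitutive, 3 from Mx1-Cre Huwe1 knockout mice, in which it calls the deletion inducible, and 3 from wild type mice. Vav-Cre is driven by regulatory elements active in blood cells, and Mx1-Cre by an interferon-responsive promoter that also acts outside blood. The treatment field of the labels is "no treatment" for every library, and the labels name no inducing agent, age, sex, strain or deleted exon for any group, and no Cre for the wild type mice. Huwe1 encodes a large ubiquitin ligase that marks many proteins for degradation.

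FGD proteins are guanine nucleotide exchange factors: they load the small GTPase CDC42 with GTP, which switches it on and, through its effector kinases and scaffolds, reorganises the actin cytoskeleton. Fgd5 is expressed in endothelium, where it is linked to vascular growth factor signalling, and within mouse bone marrow it is known as a marker of hematopoietic stem cells, used to build reporter strains. CDC42 is switched off by GTPase-activating proteins and held in the cytosol by dissociation inhibitors.

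Fgd5 lies on chromosome 6. The deposited files hold no promoter assay and no sequence, so the start of the gene is shown only to place it; it was taken from RefSeq on GRCm38.p6 at chr6:91978715-91979014, plus strand, 250 bases before the annotated start and 50 after it, with CpG dinucleotides in capitals.
Fgd5 promoter: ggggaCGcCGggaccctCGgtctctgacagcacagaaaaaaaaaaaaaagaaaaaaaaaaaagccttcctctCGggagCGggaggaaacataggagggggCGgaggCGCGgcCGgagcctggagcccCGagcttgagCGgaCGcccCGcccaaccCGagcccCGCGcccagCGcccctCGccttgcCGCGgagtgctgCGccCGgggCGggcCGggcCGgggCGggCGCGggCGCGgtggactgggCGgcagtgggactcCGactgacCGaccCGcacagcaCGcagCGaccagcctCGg
Of its bases 71.3% were G or C, against a median of 52.7% over 32851 RefSeq promoters of the same length, which put it at the 92.2 percentile. It held 37 CpG dinucleotides, against a median of 7 over all promoters, at the 94.4 percentile. The longest run of a single base was 14 A. The letters searched on both strands were CACGTG, the E-box bound by the MYC family, which is found in 7.15% of all promoters, AGATAA of GATA factors (11.2%), TGTGGT of RUNX factors (16.8%), GGAAGT of ETS factors (23.8%) and TATAAA of the TATA box (13.6%). None of these 5 strings is in the Fgd5 window, which says only that these letters are not in these 300 bases.

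The libraries held 28689765 to 33202926 counted reads, and 14086 genes passed the filter on low counts. The labelled cells carried the surface markers of the sort: Kit, the stem cell factor receptor, had 1771 and 1629 CPM (read counts relative to library size, scaled with TMM factors) in Vav-Cre libraries, 982 to 2344 CPM in Mx1-Cre libraries and 1246 to 1846 CPM in wild type libraries, and the T cell genes Cd3e and Cd8a had at most 0.0933 CPM in any library. Huwe1 itself had 445 and 490 CPM in Vav-Cre cells, 399 to 444 CPM in Mx1-Cre cells and 398 to 434 CPM in wild type cells. Its log2 fold change was 0.15 ± 0.13 for Vav-Cre against wild type and -0.01 ± 0.11 for Mx1-Cre against wild type (SE; adjusted p = 0.682 and 0.979, edgeR's quasi-likelihood test with Benjamini-Hochberg adjustment). A count over the whole gene does not test the loss of an exon, so the genotype labels could not be checked with it.

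Fgd5 was measured well above the counting limit in every library. It had 492 reads in each of the Vav-Cre libraries, 105, 112 and 48 reads in Mx1-Cre libraries 1, 2 and 3, and 1515, 1800 and 1909 reads in wild type libraries 1, 2 and 3. As levels these are 17.2 and 15.2 CPM in Vav-Cre cells, 3.24, 4.06 and 1.70 CPM in Mx1-Cre cells, and 50.01, 59.1 and 59.4 CPM in wild type cells. No library of any group overlapped another group. The lowest wild type library was 2.90 times the highest Vav-Cre library and 12.3 times the highest Mx1-Cre library, and the lowest Vav-Cre library was 3.75 times the highest Mx1-Cre library. This order, Mx1-Cre below Vav-Cre below wild type with no overlap at either step, was found for 222 of the 14086 tested genes (1.58%). Because Fgd5 was picked for it, nothing is read from its being among them. In bulk RNA a smaller share of cells that carry the transcript and less transcript per cell cannot be told apart.

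The group means were 16.2 ± 1.41 CPM in Vav-Cre cells (SD, n = 2), 3.00 ± 1.20 CPM in Mx1-Cre cells (SD, n = 3) and 56.2 ± 5.33 CPM in wild type cells (SD, n = 3). Vav-Cre cells thus held 28.9% and Mx1-Cre cells 5.35% of the mean level of wild type cells. The log2 fold change was -1.79 ± 0.31 for Vav-Cre minus wild type, -4.22 ± 0.30 for Mx1-Cre minus wild type and 2.43 ± 0.30 for Vav-Cre minus Mx1-Cre (SE of the fit). The first pair of differences shares the wild type libraries. Leaving out each library in turn moved these values only within -1.88 to -1.70, -4.48 to -3.94 and 2.15 to 2.70.

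Spread within a group was widest where the transcript was lowest. The coefficient of variation was 8.66% over the Vav-Cre libraries, 39.9% over the Mx1-Cre libraries and 9.49% over the wild type libraries. Counting error does not cover the Mx1-Cre spread: the exact Poisson 95% interval was 1.26 to 2.26 CPM for Mx1-Cre library 3, below the 2.65 to 3.92 CPM of library 1 and the 3.35 to 4.89 CPM of library 2. The intervals of the Vav-Cre libraries, 15.7 to 18.8 and 13.9 to 16.7 CPM, overlapped each other. In wild type libraries 1, 2 and 3 they were 47.5 to 52.6, 56.4 to 61.9 and 56.8 to 62.1 CPM, so that library 1 stood below the other two by more than counting error.

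Among the 9584 tested genes with a mean log2 CPM of at least 3, none had a lower fold change than Fgd5 in Mx1-Cre against wild type. In Vav-Cre against wild type 30 genes were lower, among them Mpo, the myeloperoxidase of neutrophil precursors, at -2.10. In Vav-Cre minus Mx1-Cre 3 were higher: Vldlr, a lipoprotein receptor, at 2.73, the sulfotransferase Sult1a1 at 2.65 and Clca1 at 2.49. These ranks use the values that chose Fgd5 and describe its place only.

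Per length, using the 6.095 kb of merged exons that GENCODE M21 gives for Fgd5 on GRCm38 (the reads were counted by the authors on mm9), its level was 2.83 and 2.50 CPM per kb in Vav-Cre libraries, 0.532, 0.667 and 0.280 CPM per kb in Mx1-Cre libraries, and 8.21, 9.69 and 9.74 CPM per kb in wild type libraries. Ranked among 19299 protein-coding genes within each library, Fgd5 stood at the 55.5 and 53.9 percentile in Vav-Cre cells, at the 46.2, 47.3 and 43.5 percentile in Mx1-Cre cells, and at the 66.3, 68.5 and 68.5 percentile in wild type cells. These ranks count the genes with no reads. In Mx1-Cre libraries 1, 2 and 3, 10385, 10176 and 10910 protein-coding genes stood above Fgd5. Genes of any type with reads numbered 15090, 14749 and 14601 there. Among genes with reads, Fgd5 was thus in the lower part in Mx1-Cre cells, and it had reads left in every library.

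The other 5 FGD genes did not share the pattern. None was called in any comparison by edgeR's quasi-likelihood test at an adjusted p below 0.05, where 0.511% of all tested genes were called for Vav-Cre against wild type, 2.49% for Mx1-Cre against wild type and 0.17% for Vav-Cre against Mx1-Cre. None reached an unadjusted p below 0.05, where 13.4%, 16.6% and 13.3% of all tested genes did. Neither DESeq2 nor limma called one of them. Their median log2 fold change was -0.09, -0.07 and -0.06 in those comparisons, beside -0.01, 0.01 and 0.01 over all tested genes. Fgd2, the FGD gene of macrophages and other antigen-presenting cells, came nearest. It had 50.5 and 43.1 CPM in Vav-Cre cells, 44.5, 74.9 and 26.6 CPM in Mx1-Cre cells, and 80.9, 73.2 and 68.0 CPM in wild type cells. Both Vav-Cre libraries were below every wild type library, as for 17.1% of all tested genes, while Mx1-Cre library 2 lay within the wild type range. Its log2 fold change was -0.66 ± 0.34 in Vav-Cre and -0.61 ± 0.30 in Mx1-Cre (SE; adjusted p = 0.429 and 0.344, edgeR's quasi-likelihood test with Benjamini-Hochberg adjustment). Without Mx1-Cre library 2 the Mx1-Cre value was -1.05, with an adjusted p of 0.0434 by the same edgeR test.

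Fgd1, the gene mutated in human faciogenital dysplasia, had 6.38 and 4.96 CPM in Vav-Cre cells, 5.53, 2.97 and 3.48 CPM in Mx1-Cre cells, and 3.76, 3.84 and 4.95 CPM in wild type cells. Its Vav-Cre libraries were barely above the wild type ones, by 0.44 ± 0.37 on the log2 scale (SE), where 15.6% of all tested genes stood above wild type with no overlap, and its Mx1-Cre libraries spanned them. Fgd3 had 14.96 and 17.1 CPM in Vav-Cre cells, 21.2, 19.3 and 13.1 CPM in Mx1-Cre cells and 23.1, 13.5 and 14.6 CPM in wild type cells, with the groups overlapping throughout. Fgd4, the FGD gene mutated in a human inherited neuropathy of peripheral nerve, had 18.6 and 19.5 CPM in Vav-Cre cells, 17.6, 25.5 and 13.7 CPM in Mx1-Cre cells and 20.2, 14.6 and 16.0 CPM in wild type cells, again overlapping. Fgd6 was the least expressed, at 0.186 to 1.40 CPM in Vav-Cre cells, 0.994 to 1.79 CPM in Mx1-Cre cells and 1.25 to 2.13 CPM in wild type cells. The fold change of each of these 4 genes was under 2 SE in either line.

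**Figure D1:**
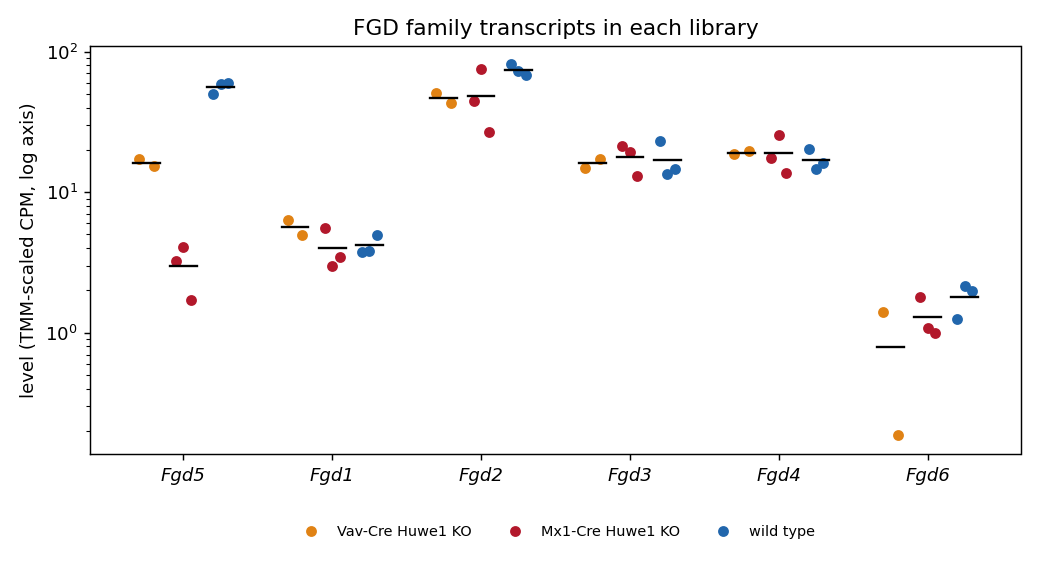
Level of each FGD gene in each library (TMM-scaled CPM, log axis), with the mean of each group as a bar; Vav-Cre, Mx1-Cre and wild type libraries stand left to right within a gene. Fgd5 separates the groups, at 15.2 and 17.2, 1.70 to 4.06 and 50.01 to 59.4 CPM, while the groups of Fgd3 and Fgd4 overlap.

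The share of Fgd5 in the family's transcripts followed the same order. Per kb of exon, Fgd5 made up 10.7% and 10.6% of the summed FGD level in Vav-Cre libraries, 2.32%, 2.00% and 1.98% in Mx1-Cre libraries, and 19.0%, 24.3% and 25.1% in wild type libraries. In wild type cells it was the second FGD gene by level per kb, at 9.21 ± 0.874 CPM per kb (SD, n = 3) behind Fgd2 at 25.4 ± 2.23. In Vav-Cre cells, at 2.66 ± 0.231 CPM per kb (SD, n = 2), it was level with Fgd3 at 2.67 and above Fgd4 at 2.17. In Mx1-Cre cells, at 0.493 ± 0.197 CPM per kb (SD, n = 3), it stood below Fgd3 at 2.97, Fgd4 at 2.15 and Fgd1 at 0.986, and only Fgd6 at 0.160 was lower.

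CDC42 and the genes that act on it or answer to it differed little between the groups. Cdc42 had 696 and 741 CPM in Vav-Cre cells, 720, 752 and 703 CPM in Mx1-Cre cells, and 701, 694 and 689 CPM in wild type cells. That is 0.05 ± 0.12 in Vav-Cre and 0.06 ± 0.11 in Mx1-Cre on the log2 scale (SE). Over 50 tested genes of the 51 listed (CDC42 with its other exchange factors, its inhibitors and its effectors; Cdc42ep1 was too low to test), the median log2 fold change was 0.10 in Vav-Cre and 0.06 in Mx1-Cre. None was called for Vav-Cre against wild type, none was called higher for Mx1-Cre against wild type and 1 was called lower there, where 2.1% of all tested genes were. None was called for Vav-Cre against Mx1-Cre. At an unadjusted p below 0.05 there were 7, 5 and 7 genes in these comparisons, beside 13.4%, 16.6% and 13.3% of all tested genes. The test throughout was edgeR's quasi-likelihood test. DESeq2 called 1, 1 and 4, and limma 0, 1 and 0. The Vav-Cre libraries stood above every wild type library for 13 of the 50 and below for 7 (15.6% and 17.1% of all tested genes), and the Mx1-Cre libraries for 8 and 4 (10.9% and 14.8%). Against the Mx1-Cre libraries, the Vav-Cre libraries stood above for 8 and below for 5 (13.8% and 12% of all tested genes).

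The exchange factors, including the blood cell factor Vav1 at 0.08 ± 0.12 in Mx1-Cre (SE), had medians of 0.15 in Vav-Cre and 0.03 in Mx1-Cre over 17 genes. The 8 inhibitors had medians of -0.03 and 0.11. Among them Arhgap31, a GTPase-activating protein, was at 0.86 ± 0.33 in Vav-Cre and -0.20 in Mx1-Cre, and Arhgap32 was at 0.39 ± 0.17 and 0.39 ± 0.16, none of these called. The 25 tested effectors had medians of 0.11 and 0.13. The scaffold Iqgap1 stood at 0.37 ± 0.17 in Vav-Cre and 0.42 ± 0.15 in Mx1-Cre (SE), and the membrane-bending adaptor Fnbp1l at 0.62 ± 0.17 and -0.06. The kinase Pak2 stood at -0.16 and 0.07. No effector was called by edgeR's quasi-likelihood test with all libraries, and DESeq2 called Fnbp1l for Vav-Cre against wild type (adjusted p = 0.0358) and for Vav-Cre against Mx1-Cre (0.0276). The kinase gene Tnk2 was called higher in Mx1-Cre cells only when Mx1-Cre library 2 was left out, at 1.47 with an adjusted p of 0.0361 (edgeR).

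**Figure D2:**
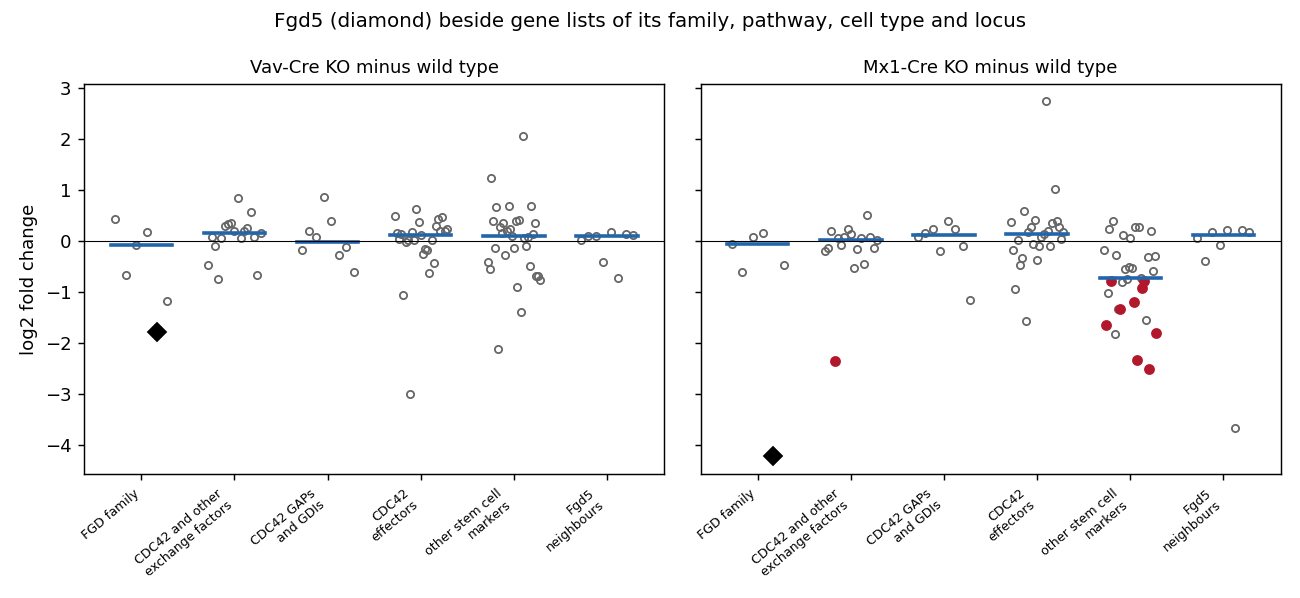
Log2 fold change of each tested gene of each list, for Vav-Cre against wild type on the left and Mx1-Cre against wild type on the right; Fgd5 is the black diamond, filled red points are called, and the blue bar is the median without Fgd5. Fgd5 stands at -1.79 and -4.22, while the medians of the other FGD genes are -0.09 and -0.07.

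Fgd5 was then set beside 31 other genes known as markers of mouse hematopoietic stem cells. The list was chosen with earlier results of these data known, so its counts beside those of all tested genes describe it only. For Mx1-Cre against wild type 9 of them fell and 0 rose, where 2.1% of all tested genes fell and 0.39% rose, and the median log2 fold change was -0.73, beside 0.01 over all tested genes. For Vav-Cre against wild type none was called, where 0.192% of all tested genes rose and 0.319% fell, and the median was 0.10, beside -0.01 over all tested genes. There 10 of the 31 had an unadjusted p below 0.05 (13.4% of all tested genes), DESeq2 called 6 and limma 1 (Ndn). For Vav-Cre minus Mx1-Cre 1 gene was called higher and 0 lower, where 0.114% and 0.0568% of all tested genes were, and the median was 0.79. The Vav-Cre libraries stood above every wild type library for 7 of the 31 and below for 6 (15.6% and 17.1% of all tested genes). The Mx1-Cre libraries stood above wild type for 0 and below for 18 (10.9% and 14.8%), the latter being the side on which Fgd5 lies. The Vav-Cre libraries stood above every Mx1-Cre library for 15 and below for 0 (13.8% and 12%). Every one of the 31 stood above Fgd5 in Mx1-Cre against wild type, the lowest being Sult1a1 at -2.51. In Vav-Cre against wild type 30 of 31 stood above it, and the other was Gprc5c, a sparse transcript at -2.11 ± 1.44 (SE). The markers therefore lay on both sides of 0 in Vav-Cre cells, where Fgd5 was at -1.79.

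Among the called markers, Ndn had low values in both lines, as Fgd5 did. It encodes necdin, a growth suppressor linked to stem cell quiescence. It had 12.2 and 8.49 CPM in Vav-Cre cells, against 21.6, 27.9 and 31.5 CPM in wild type cells. Both Vav-Cre libraries were below all wild type libraries, with a log2 fold change of -1.39 ± 0.30 (SE; adjusted p = 0.0731, edgeR's quasi-likelihood test with Benjamini-Hochberg adjustment). In Mx1-Cre cells Ndn fell by 2.33 ± 0.27 (SE; adjusted p = 0.00442 by the same edgeR test), a call that every alternative kept.

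For 7 further called markers the Vav-Cre fold change lay between -0.77 and 0.35. Procr, the endothelial protein C receptor used to sort stem cells, had 60.4 and 73.7 CPM in Vav-Cre cells, 37.1, 40.4 and 32.97 CPM in Mx1-Cre cells, and 58.4, 70.6 and 62.2 CPM in wild type cells. The Vav-Cre libraries lay around the wild type ones and the Mx1-Cre libraries below both. Procr fell by 0.79 ± 0.15 on the log2 scale in Mx1-Cre (SE; adjusted p = 0.0272, edgeR) and stood at 0.07 ± 0.17 in Vav-Cre. Esam, an adhesion molecule of stem cells and endothelium, had 187 and 216 CPM in Vav-Cre cells, 136, 140.1 and 108 CPM in Mx1-Cre cells, and 259, 200.4 and 206 CPM in wild type cells. It fell in Mx1-Cre by 0.79 ± 0.15 (SE; adjusted p = 0.0272, edgeR). The transcription factor gene Prdm16, needed for stem cell maintenance, had 43.0 and 51.0 CPM in Vav-Cre cells, 30.9, 28.2 and 21.0 CPM in Mx1-Cre cells, and 53.1, 48.9 and 48.9 CPM in wild type cells. It fell in Mx1-Cre by 0.91 ± 0.18 (SE; adjusted p = 0.0267, edgeR). The calls of Procr, Esam and Prdm16 were each lost without any 1 wild type library, without Mx1-Cre library 1 and without Mx1-Cre library 3, at adjusted p = 0.0603 to 0.141 (edgeR).

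The Vav-Cre libraries differed from each other more for several of these markers than for Fgd5. Sult1a1 had 10.9 and 65.1 CPM in the Vav-Cre libraries, 4.88, 8.49 and 4.83 CPM in Mx1-Cre cells, and 35.2, 33.6 and 34.8 CPM in wild type cells. Vwf, von Willebrand factor, which marks platelet-biased stem cells, had 56.9 and 167 CPM in the Vav-Cre libraries, 60.7, 35.5 and 67.0 CPM in Mx1-Cre cells, and 229, 159 and 186 CPM in wild type cells. Ifitm1, an interferon-induced membrane protein gene, had 489 and 224 CPM in the Vav-Cre libraries, 117, 98.6 and 115 CPM in Mx1-Cre cells, and 189, 323 and 326 CPM in wild type cells. Fgd5, at 17.2 and 15.2 CPM, had Vav-Cre libraries within 1.13 times of each other. Cdkn1c, the cell cycle inhibitor p57, had 10.3 and 11.5 CPM in Vav-Cre cells, 5.71, 4.57 and 5.11 CPM in Mx1-Cre cells, and 10.4, 17.8 and 19.8 CPM in wild type cells. In Mx1-Cre cells Sult1a1, Vwf, Ifitm1 and Cdkn1c fell by 2.51 ± 0.52, 1.81 ± 0.36, 1.34 ± 0.28 and 1.64 ± 0.27 on the log2 scale (SE; adjusted p = 0.0354, 0.0297, 0.0387 and 0.0151, edgeR). The Sult1a1 call was lost without any 1 wild type library, Mx1-Cre library 1 or Mx1-Cre library 3, and the Vwf call without any 1 wild type or Mx1-Cre library. The Ifitm1 call was lost without wild type library 2 or 3 or any 1 Mx1-Cre library, and the Cdkn1c call without wild type library 2 or 3 or Mx1-Cre library 1. Over these losses the adjusted p was 0.0612 to 0.152 (edgeR).

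The count of 9 rests on few libraries. It was 4, 1 and 1 without wild type library 1, 2 or 3, it was 1, 8 and 3 without Mx1-Cre library 1, 2 or 3, and it was 13 without either Vav-Cre library. Fgd5 itself stayed between -4.48 and -3.94 over these refits.

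**Figure D3:**
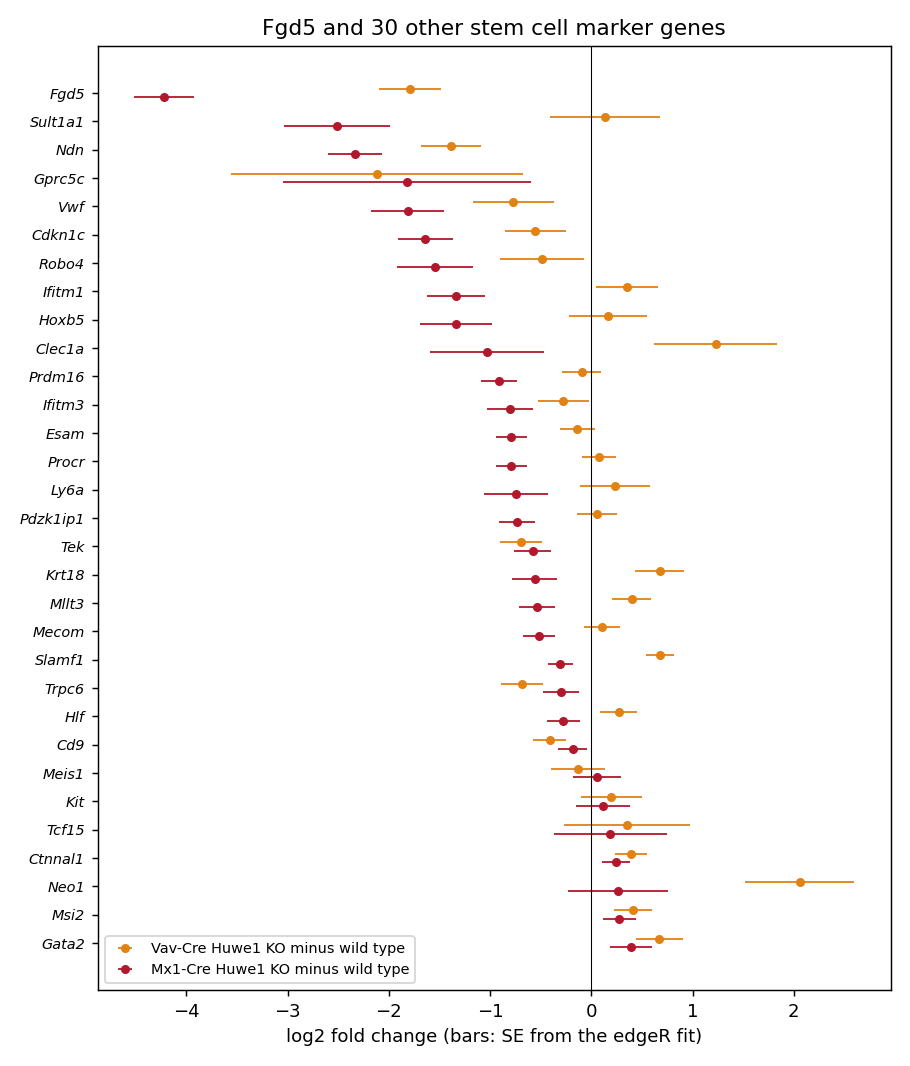
Log2 fold change against wild type of Fgd5 and 30 of the 31 other stem cell marker genes, with the SE of the fit as bars; Vav-Cre is drawn above Mx1-Cre for each gene, in the order of the Mx1-Cre value. Fgd5, in the top row, is the lowest in Mx1-Cre at -4.22, with Sult1a1 next at -2.51, and it stands at -1.79 in Vav-Cre, where the markers lie on both sides of 0.

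The genes of the sort itself differed less than Fgd5. Slamf1, the CD150 antigen, had 105 and 108 CPM in Vav-Cre cells, 49.0, 53.6 and 58.1 CPM in Mx1-Cre cells, and 68.4, 62.8 and 67.3 CPM in wild type cells. It was the marker called between the lines, 0.99 ± 0.14 higher in Vav-Cre than in Mx1-Cre on the log2 scale (SE; adjusted p = 0.0346, edgeR's quasi-likelihood test with Benjamini-Hochberg adjustment), and the call was kept in 6 of 15 alternatives, over which the adjusted p ranged from 3.424e-07 to 0.1658. It was lost without each library but Vav-Cre library 1, at adjusted p = 0.0504 to 0.1275 (edgeR). Ly6a, the Sca-1 antigen, had 50.6 and 144 CPM in Vav-Cre cells, 45.1, 42.4 and 60.7 CPM in Mx1-Cre cells, and 75.5, 96.0 and 77.3 CPM in wild type cells. Cd48, excluded by the sort, had 15.2 and 15.4 CPM in Vav-Cre cells, 22.5, 19.2 and 22.3 CPM in Mx1-Cre cells, and 14.8, 16.1 and 14.8 CPM in wild type cells. In Mx1-Cre cells, where Fgd5 was lowest, the CD150 transcript was thus lower than in wild type by 0.31 ± 0.13 and the CD48 transcript higher by 0.48 ± 0.17 on the log2 scale (SE), and neither passed the test. Whether the sorted cells differed in kind between the groups was not tested.

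Endothelium is the other tissue known for Fgd5, and the summed level of genes listed for it was lower in both lines than in wild type, as that of Fgd5 was. Over 14 genes listed for endothelium and not for stem cells, the sum was 6.34 to 10.3 CPM in Vav-Cre libraries. It was 5.55 to 10.6 CPM in Mx1-Cre libraries and 13.4 to 19.8 CPM in wild type libraries. A large part was Aqp1, at 1.26 and 4.28 CPM in Vav-Cre, 2.21 to 5.43 CPM in Mx1-Cre and 4.89 to 5.63 CPM in wild type libraries. Whether cells other than endothelium gave the reads of these genes was not tested. The largest wild type sum, over all 14 genes, was below the lowest wild type level of Fgd5 alone, 50.01 CPM. The Vav-Cre and Mx1-Cre sums overlapped, while the Fgd5 levels of those groups did not. The series holds no library of endothelium, so how such sums relate to Fgd5 in those cells was not tested. Of the 14 genes 4 were at 0 in both Vav-Cre libraries, 5 in all Mx1-Cre libraries and 1 in all wild type libraries. Sox17, an endothelial transcription factor gene, was at 0 in every library. Cdh5, the VE-cadherin gene, had 0.0350 and 0.186 CPM in Vav-Cre libraries, 0 in every Mx1-Cre library, and 0, 0.492 and 0.218 CPM in wild type libraries. Kdr, the VEGF receptor 2 gene, had 1.12 and 1.302 CPM in Vav-Cre libraries, 1.73, 0.0363 and 2.45 CPM in Mx1-Cre libraries, and 3.57, 2.17 and 5.48 CPM in wild type libraries. Of the 9 that could be tested, 7 were negative and 2 positive in Vav-Cre against wild type, with a median log2 fold change of -0.89. In Mx1-Cre against wild type 8 were negative and 1 positive, with a median of -1.29. In each line 4 lay below every wild type library (17.1% and 14.8% of all tested genes), and 1 and 0 lay above (15.6% and 10.9%). The positive ones in Vav-Cre were the VEGF receptor 1 gene Flt1 at 1.56 ± 1.26 and the tight junction gene Cldn5 at 0.19 ± 1.14 (SE). That in Mx1-Cre was the scavenger receptor gene Stab1 at 1.26 ± 1.08 (SE). None of the 9 was called by edgeR's quasi-likelihood test in any comparison, and limma called 0. DESeq2 called 0, 2 and 2 for Vav-Cre against wild type, Mx1-Cre against wild type and Vav-Cre against Mx1-Cre. In each of these comparisons 2 had an unadjusted p below 0.05 by edgeR, beside 13.4%, 16.6% and 13.3% of all tested genes. The part of these cells in the Fgd5 values was not tested.

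A further 10 genes are shared by endothelium and stem cells. Their summed level was 587 to 699.7 CPM in Vav-Cre libraries, 450.1 to 526 CPM in Mx1-Cre libraries and 712 to 856 CPM in wild type libraries. The sum has the order of Fgd5, but not every gene does. Mx1-Cre minus wild type was negative for 10 and positive for 0, with 6 below and free of overlap (14.8% of all tested genes). There 6 had an unadjusted p below 0.05 (edgeR), beside 16.6% of all tested genes. Vav-Cre minus wild type was negative for 7 and positive for 3, with 4 below and free of overlap (17.1% of all tested genes). Vav-Cre minus Mx1-Cre was positive for 8 and negative for 2, with 2 above and free of overlap (13.8%). Of these, Esam and Procr, counted above, were called lower in Mx1-Cre cells by edgeR, where 2.1% of all tested genes were. None was called in Vav-Cre cells by edgeR, where 2 had an unadjusted p below 0.05 (13.4% of all tested genes).

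Genes beside Fgd5 on chromosome 6 for the most part did not share its differences. Of the 5 nearest genes on each side with an entry in the count table, 8 could be tested. None was called in any comparison by edgeR's quasi-likelihood test, by DESeq2 or by limma. The only unadjusted p below 0.05 (edgeR) was that of Prickle2, a planar polarity gene with at most 0.792 CPM. It was in Mx1-Cre against wild type, where 16.6% of all tested genes had such a p. Prickle2 was lower there, on the side of Fgd5, at 0 to 0.124 CPM beside 0.361 to 0.792 CPM in wild type libraries. For 14.8% of all tested genes the Mx1-Cre libraries lay below every wild type library. The median log2 fold change of the 8 was 0.10 in Vav-Cre and 0.12 in Mx1-Cre. Ccdc174, the nearest tested gene on the left, had 46.9 and 51.1 CPM in Vav-Cre cells, 48.9, 53.7 and 48.5 CPM in Mx1-Cre cells, and 46.8, 52.3 and 45.4 CPM in wild type cells, with all groups overlapping. Nr2c2, the nuclear receptor gene that is the nearest on the right, had 89.8 and 102 CPM in Vav-Cre cells, 106, 119.8 and 68.8 CPM in Mx1-Cre cells, and 93.8, 80.9 and 79.5 CPM in wild type cells. The annotation places Gm44095 and the antisense gene 4930466I24Rik over Fgd5, and neither is listed in the count table. The libraries were unstranded, so reads of Fgd5 and of an antisense transcript cannot be told apart.

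**Figure D4:**
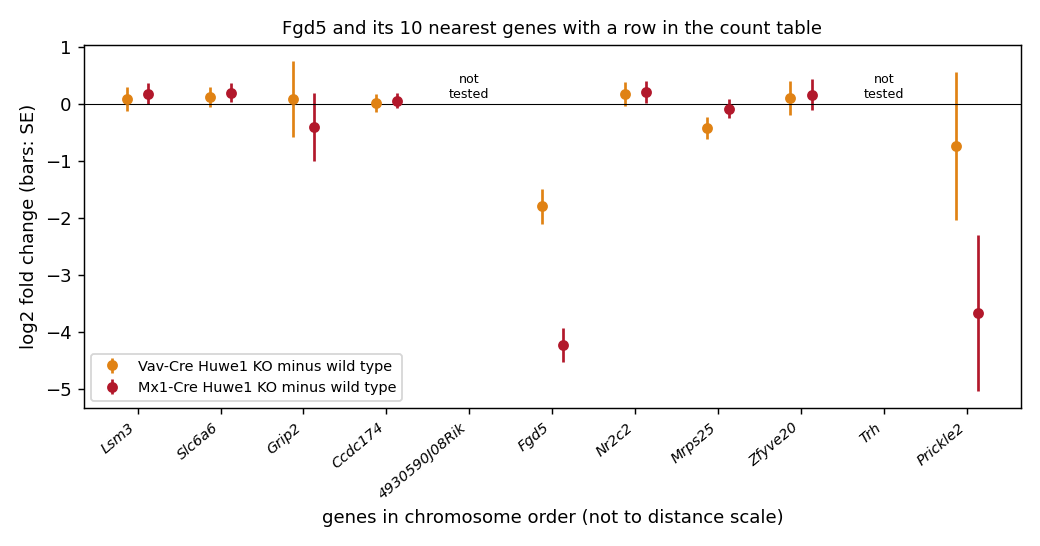
Log2 fold change against wild type (bars: SE of the fit) of Fgd5 and the 10 nearest genes with an entry in the count table, in chromosome order and not to distance scale. Fgd5 stands at -1.79 in Vav-Cre and -4.22 in Mx1-Cre, while Ccdc174 and Nr2c2 on either side lie between 0.03 and 0.21.

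The genes most like Fgd5 were found by Pearson's r of log2 CPM with Fgd5 over the 8 libraries, among 9583 other tested genes with a mean log2 CPM of at least 3. All points share the group differences by which Fgd5 was chosen, so r is a description and the fold changes of these genes carry no test here. The first 10 were Plk1s1 (r = 0.991), Nagk (0.982), Myo5c (0.979), Timp2 (0.979), Casp6 (0.978), Tmem38b (0.976), Jam3 (0.976), Krba1 (0.975), Mboat2 (0.975) and Fam213a (0.974). In each of them the Vav-Cre libraries lay between the other groups, but the changes were smaller than in Fgd5. Plk1s1, the most alike, had 41.0 and 39.9 CPM in Vav-Cre cells, 32.3, 32.98 and 30.2 CPM in Mx1-Cre cells, and 47.6, 45.5 and 45.5 CPM in wild type cells, which is -0.19 and -0.54 on the log2 scale.

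The nearest in size was Jam3, a junctional adhesion molecule of endothelium and blood stem cells. It had 11.6 and 10.4 CPM in Vav-Cre cells, 5.50, 6.42 and 3.51 CPM in Mx1-Cre cells, and 20.4, 37.3 and 34.6 CPM in wild type cells. Mx1-Cre library 3 was the lowest library for Jam3 as for Fgd5. Vav-Cre cells held 35.9% and Mx1-Cre cells 16.7% of its wild type level, at -1.48 ± 0.33 and -2.58 ± 0.30 (SE). Mboat2, a lysophospholipid acyltransferase gene, had 7.18 and 9.61 CPM in Vav-Cre cells, 4.38, 4.03 and 3.62 CPM in Mx1-Cre cells, and 17.2, 20.4 and 16.1 CPM in wild type cells. Vav-Cre cells held 46.9% and Mx1-Cre cells 22.4% of its wild type level. Myo5c, an unconventional myosin gene, had 21.2 and 20.3 CPM in Vav-Cre cells, 11.3, 14.8 and 7.95 CPM in Mx1-Cre cells, and 36.5, 29.7 and 37.6 CPM in wild type cells.

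The 5 genes most opposite to Fgd5 were Ppp2r4 (r = -0.976), Slc8a1 (-0.968), Fip1l1 (-0.966), Ywhaz (-0.965) and Aars (-0.965). Slc8a1, a sodium and calcium exchanger gene, had 34.7 and 35.0 CPM in Vav-Cre cells, 56.7, 51.5 and 61.4 CPM in Mx1-Cre cells, and 27.7, 32.7 and 29.99 CPM in wild type cells. Aars, the alanyl-tRNA synthetase gene, had 142 and 121 CPM in Vav-Cre cells, 188, 168 and 195 CPM in Mx1-Cre cells, and 105, 114 and 111 CPM in wild type cells. The list of the 10 most alike was not stable: it shared 3 genes with the list by Spearman's rho, and between 2 and 9 genes with the lists made without each library, the fewest without Vav-Cre library 2.

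**Figure D5:**
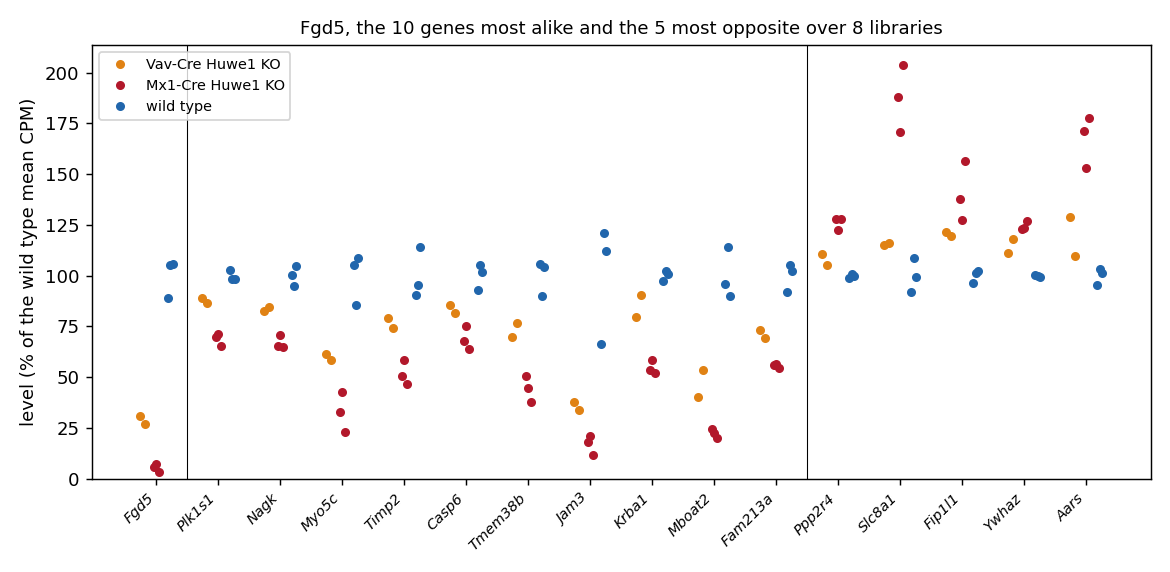
Level in each library as a percent of the wild type mean CPM, for Fgd5, the 10 genes most alike and the 5 most opposite over 8 libraries; Vav-Cre, Mx1-Cre and wild type libraries stand left to right within a gene. The Fgd5 means are 28.9% in Vav-Cre and 5.35% in Mx1-Cre, below those of Jam3 at 35.9% and 16.7%.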

How the data were processed

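Expression was measured by RNA-seq in 8 libraries, grouped by title into Vav-Cre Huwe1 knockout (2), Mx1-Cre Huwe1 knockout (3) and wild type (3). The labels do not say whether replicates came from separate mice, so a p-value here reflects spread among the libraries, which may be technical. Per the labels' protocols, libraries were made with a SMARTer low-input kit and an unstranded protocol. The submitters' processing notes name TopHat, SAMtools, HTSeq and edgeR and the mm9 build. No tool version, counting annotation or strand option is given in the sources used here. The authors deposited raw read counts per gene symbol for 23358 genes. The second table deposited by the authors holds CPM values, which equal the count scaled by the library total, for 12457 genes; it was used only in an alternative.

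Counts were tested with edgeR 4.0.16 (R 4.3.3) by the quasi-likelihood test in 1 fit over all 8 libraries with group as its only term, after filterByExpr (minimum count 10, minimum total 15, leaving 14086 genes) and TMM scaling. The p-values were adjusted by Benjamini-Hochberg across the tested genes and called below 0.05. Each SE was taken as the size of the log2 fold change over the root of F. Expression levels are CPM with TMM scaling, and r used log2 CPM with a prior count of 2. Poisson intervals (95%) cover counting error only, of reads without molecular identifiers. The steps were tested on simulated data. Alternatives used DESeq2 1.42.0, limma 3.58.1 (log2 of CPM plus 1), other scalings, no filter, a replicate block, only the groups compared, and each library left out. The genes, lists and motifs were chosen with earlier results of these data known. Named genes are Fgd5, Huwe1, the FGD family, sort markers, called list members, up to 4 further members per list with the smallest p, the neighbours, and the genes most and least like Fgd5; others, such as Vav1, Pak2, Cdh5, Gprc5c and Vldlr, were named after their values were seen. Merged exon lengths came from GENCODE M21 on GRCm38. No protein sequence was used here. List counts cover every member, of which a few are not reported here by name.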

Additional observations from a re-analysis of the deposited data

Results flagged for a closer look

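The difference between the knockout lines was itself tested with edgeR's quasi-likelihood test and Benjamini-Hochberg adjustment, and it passed for Slamf1, the CD150 antigen gene of the sort. Fgd5 carries no test. Slamf1 was 0.9871 higher in Vav-Cre than in Mx1-Cre on the log2 scale (adjusted p = 0.0346), with 105 and 108 CPM in Vav-Cre libraries and 49.0, 53.6 and 58.1 CPM in Mx1-Cre libraries. The Slamf1 call was kept in 6 of 15 alternatives. It was lost without each library but Vav-Cre library 1 (adjusted p = 0.0504 to 0.1275, edgeR). Groups of 3 libraries or fewer are too small for a test of single outlying libraries.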

How the results depend on the processing

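Fgd5 kept its direction under every alternative run in all 3 comparisons, given here for Vav-Cre over wild type, Mx1-Cre over wild type, then Vav-Cre over Mx1-Cre: -1.75, -3.95 and 2.20 with limma and -1.92, -4.28 and 2.36 with the replicate block. Same-numbered libraries did not all deviate together: over 9584 genes r was 0.39 for Mx1-Cre and wild type libraries 3 and 0.11 for Vav-Cre and wild type libraries 1, and -0.24 to -0.03 for the other same-numbered pairs, so the numbers were not taken as pairing the libraries. With the replicate block the calls over all genes were 20, 235 and 9, against 72, 351 and 24 without it, and the stem cell markers called between the lines were 0. Over all genes DESeq2 called 616, 1040 and 466, a fit of only the groups compared 111, 575 and 3, limma 146, 604 and 28, and no filter on low counts 174 and 81 for the Vav-Cre comparisons. Leaving out each library gave 5 to 196, 58 to 565 and 3 to 412. Among the stem cell markers, leaving out each library gave 0 to 1, 1 to 13 and 0 to 9 calls, DESeq2 6, 13 and 12, limma 1 for Vav-Cre (Ndn), no filter 1 for Vav-Cre and 6 between the lines, and only the groups compared 0 between the lines. Among the CDC42 genes DESeq2 called 1 for Vav-Cre and 4 between the lines, and leaving out a library gave 0 to 0, 0 to 2 and 0 to 1. Among the other FGD genes it gave 0 to 1 for Mx1-Cre. Of the genes listed for endothelium and not for stem cells, library totals only and no filter each called 1 for Mx1-Cre (Ramp2). DESeq2 called 2 there and 2 between the lines. The genes most like Fgd5 shared 3 of 10 with Spearman's rho and 2 to 9 when a library was left out. Of the alternative values of single named genes with a call, 196 kept it, 74 lost it and 0 changed sign. The cause of these changes was not tested. Genes under about 1 CPM, such as Fgd6, Gprc5c and Cdh5, are limited by depth, and 2 Vav-Cre libraries limit every statement on that line.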

Other observations

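Markers of other blood cells give further context for the libraries in which Fgd5 was read. Mpo had 67.9 and 72.0 CPM in Vav-Cre cells, 128, 70.2 and 84.0 CPM in Mx1-Cre cells, and 367, 318 and 215 CPM in wild type cells. It fell in both lines, by 2.10 ± 0.29 in Vav-Cre and 1.67 ± 0.25 in Mx1-Cre (SE; adjusted p = 0.0244 and 0.0103, edgeR's quasi-likelihood test with Benjamini-Hochberg adjustment). Unlike those of Fgd5, its knockout libraries overlapped. Its calls were lost without wild type library 2 (adjusted p = 0.0964 and 0.0513, edgeR) and, for Vav-Cre, without Vav-Cre library 2 (0.101). Csf3r, the granulocyte colony-stimulating factor receptor, fell by 2.30 ± 0.35 in Mx1-Cre (SE; adjusted p = 0.0112, edgeR). Its Vav-Cre libraries, at 16.1 to 39.0 CPM, also lay below the 57.1 to 94.2 CPM of wild type, with no call there. Over the 10 progenitor and myeloid genes the median log2 fold change was -1.59 in Vav-Cre and -1.12 in Mx1-Cre, with 8 and 9 negative. In each line 6 of the 10 lay below every wild type library (17.1% and 14.8% of all tested genes). The erythroid list summed to 72.5 to 102 CPM in Vav-Cre libraries, 200.03 to 386 CPM in Mx1-Cre libraries and 179.98 to 292 CPM in wild type libraries. Of it, Rhd, a red cell antigen gene, fell by 3.21 ± 0.46 in Vav-Cre (SE; adjusted p = 0.0269, edgeR), a call lost without wild type library 2 or 3 or Vav-Cre library 2 (adjusted p = 0.0545 to 0.104, edgeR). The mast cell and basophil list spanned 17.8 to 242 CPM in the Vav-Cre libraries, with 29.6 to 42.3 CPM in Mx1-Cre libraries and 16.2 to 20.0 CPM in wild type libraries. Most of the larger Vav-Cre sum came from a single gene, not reported here by name, that was low in the other Vav-Cre library. The lymphoid list summed to 22.7 to 28.2 CPM in Vav-Cre libraries, 33.5 to 55.6 CPM in Mx1-Cre libraries and 22.5 to 39.9 CPM in wild type libraries. Most of the Vav-Cre sum was Lck, a T cell kinase gene, with a mean of 22.9 CPM in Vav-Cre cells, 23.4 CPM in Mx1-Cre cells and 21.7 CPM in wild type cells. All 6 tested lymphoid genes had a lower value in Vav-Cre than in Mx1-Cre (median log2 fold change -3.66). For 5 of 6 the lines did not overlap (12% of all tested genes were lower with no overlap). An unadjusted p below 0.05 (edgeR) was found for 5 (13.3% of all tested genes). In Mx1-Cre against wild type all 6 were positive (median 1.35). None of the 6 was called by edgeR's quasi-likelihood test in any comparison. The megakaryocyte list summed to 326 to 639 CPM in Vav-Cre libraries, 555 to 786 CPM in Mx1-Cre libraries and 601 to 828 CPM in wild type libraries. The part of such cells in the Fgd5 values was not tested.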
